A study of Mus musculus with 6 samples.

Results

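The mouse liver table held 68997 assembled transcripts, of which 8447 carried no Ensembl gene. The 899 transcripts described here were the rows without an Ensembl gene that reached 1 FPKM (a fragment count scaled to transcript length and to library size) in the higher of the groups. They were selected on the same FPKM values that are compared below, so their levels are a description and were not tested. None of the 899 had a reference transcript or a gene name in the table, and each goes by the locus number that the assembler gave it.

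Livers came from C57BL/6 wild-type (wt) mice of 10 weeks on the diet labelled NCD, 3 mice that received Ad-MAFG and 3 mice that received Ad-CMV. Ad-MAFG is an adenovirus that carries Mafg under the cytomegalovirus promoter, and Ad-CMV is the empty vector. The promoter is not limited to hepatocytes, and all 6 mice carried adenovirus. Total RNA was depleted of ribosomal RNA, and strand-specific libraries were sequenced as paired reads of 76 bases. The table gives 1 value per group and none per mouse. Spread between mice, overlap between groups and depth could therefore not be computed, and every difference below is a difference between the pooled group values, with no replicate check and no p-value.

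MAFG is a small MAF transcription factor. It binds MAF recognition elements as a homodimer, which has no activation domain of its own, or as a heterodimer with CNC factors such as NRF2, which does. An assembled transcript outside the gene annotation can be a long noncoding RNA that no catalogue held at the time, an extension of a known gene, an antisense RNA, a processed product of RNA polymerase III such as a tRNA, or a stretch of repeats. In liver, many long noncoding RNAs sit beside genes of metabolism and are made from the promoters of those genes or from enhancers near them.

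The strand on which a transcript was assembled was read from the order in which loci were numbered, and it is not a safe guide to the strand of the RNA. It matched the Ensembl strand for all 24914 annotated rows listed at 0 in both groups, rows that carry only the reference model. Of the 12847 annotated rows on chromosomes that reached 1 FPKM, 8697 (67.7%) were assembled on the strand opposite to their Ensembl gene, and of protein-coding rows 72.8% were. The strand setting of the assembly is not given in the sources used here. Sense and antisense RNA can therefore not be told apart for the members, and strand below means the assembled strand.

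For 13 of the 899 transcripts, the locus began within 100 bases of a start site that RefSeq (GRCm38.p6) places on the same strand. No annotated row had those coordinates. Without regard to strand, 52 transcripts had an end of the locus at a RefSeq start site in this way. The promoters at a few of the 13 loci are shown because the values of these loci lay far apart in the groups, and because MAFG is a DNA-binding protein. Since the assembled strand is not a safe guide, a match does not show that the RNA of a locus starts at that promoter. Each run covers 250 bases before to 50 bases after the start site and is read 5′ to 3′ along the strand of the gene. Capitals mark matches to any of the motifs TGCTGA (the core shared by each side of a MAF recognition element), TGANTCA (the AP-1-like core) or TGACNNNGC (the core of an antioxidant response element) on either strand. Matches to TGANTCA and TGACNNNGC can overlap.
Promoter of Gm38882, XLOC_048815, chr6:117879383-117879682, plus strand: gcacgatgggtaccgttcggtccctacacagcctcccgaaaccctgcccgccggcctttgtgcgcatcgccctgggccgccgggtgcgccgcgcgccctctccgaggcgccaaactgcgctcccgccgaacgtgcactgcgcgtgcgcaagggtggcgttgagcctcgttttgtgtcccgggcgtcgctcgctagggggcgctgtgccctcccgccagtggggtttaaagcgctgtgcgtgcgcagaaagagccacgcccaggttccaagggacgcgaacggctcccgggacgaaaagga
Promoter of Gm33318, XLOC_047605, chr6:37442260-37442559, plus strand: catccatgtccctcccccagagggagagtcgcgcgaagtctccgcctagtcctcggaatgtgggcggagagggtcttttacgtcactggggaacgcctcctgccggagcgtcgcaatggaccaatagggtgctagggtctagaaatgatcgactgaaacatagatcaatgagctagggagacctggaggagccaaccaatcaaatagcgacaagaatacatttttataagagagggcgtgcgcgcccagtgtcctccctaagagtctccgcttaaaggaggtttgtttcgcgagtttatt
Promoter of Gm39794, XLOC_030484, chr2:35063260-35063559, plus strand: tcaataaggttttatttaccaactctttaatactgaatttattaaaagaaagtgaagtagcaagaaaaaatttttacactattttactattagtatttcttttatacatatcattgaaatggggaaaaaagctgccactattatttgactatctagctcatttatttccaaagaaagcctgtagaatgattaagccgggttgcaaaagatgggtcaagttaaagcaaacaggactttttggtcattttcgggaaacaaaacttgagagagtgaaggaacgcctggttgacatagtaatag
Promoter of Gm30206, XLOC_047000, chr5:138825177-138825476, minus strand: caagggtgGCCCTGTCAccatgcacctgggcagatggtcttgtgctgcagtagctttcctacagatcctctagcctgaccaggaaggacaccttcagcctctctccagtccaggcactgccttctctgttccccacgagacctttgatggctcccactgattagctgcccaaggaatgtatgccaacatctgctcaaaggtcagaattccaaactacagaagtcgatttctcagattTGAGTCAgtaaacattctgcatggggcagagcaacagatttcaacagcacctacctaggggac

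XLOC_048815, whose locus began at the Gm38882 promoter, stood at 0.400 FPKM in Ad-MAFG livers, against 3.21 FPKM in Ad-CMV livers. Its coordinates were shared with another row, as were those of XLOC_047605 and of several others of the 13. Where such transcripts start inside the locus is not known. XLOC_047605, at the Gm33318 promoter, had 0.257 FPKM in Ad-MAFG livers and 1.26 FPKM in Ad-CMV livers, and XLOC_030484, at the Gm39794 promoter, had 0.691 FPKM in Ad-MAFG livers and 2.56 FPKM in Ad-CMV livers. XLOC_047000, at the Gm30206 promoter, lay the other way, at 1.04 FPKM in Ad-MAFG livers and 0.341 FPKM in Ad-CMV livers. It was the 1 transcript of the 13 that was at least 2-fold higher in Ad-MAFG livers, and 6 were at least 2-fold lower. Over all 899 members the shares were 17.1% and 18.4%. The promoter of Gm30206 held 1 match to TGANTCA and 1 match to TGACNNNGC. None of the 6 promoters at the loci of the lower transcripts held TGCTGA or TGANTCA. Of the higher and lower transcripts, only XLOC_022582, at 1.06 FPKM in Ad-MAFG livers and 3.41 FPKM in Ad-CMV livers, reached 1 FPKM in both groups. The selection fixed the direction of the others, so nothing is read from motifs by direction. Among 32851 RefSeq promoter windows of this length, 19.5% held TGCTGA, 7.81% held TGANTCA and 12.4% held TGACNNNGC, and among the 13 the counts were 2, 1 and 2. A match describes the letters only. The base content of the windows also differed widely, with 69.7% G and C in the Gm38882 window and 31.7% in the Gm39794 window.

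The 899 transcripts were mostly low. The median of the higher group value was 1.69 FPKM, against 2.50 FPKM over the 12865 rows with an Ensembl gene that reached the same minimum, and 519 transcripts lay below 2 FPKM. In both groups at once, 463 transcripts reached 1 FPKM. A further 184 passed only through Ad-MAFG and 252 only through Ad-CMV, and for these 2 sets the direction is fixed by the selection. Just inside the minimum, XLOC_027966 had 0.725 FPKM in Ad-MAFG livers and 1.001 FPKM in Ad-CMV livers, and XLOC_061387 had 1.002 FPKM in Ad-MAFG livers and 0.461 FPKM in Ad-CMV livers. Just outside it, XLOC_043449 had 0.9996 FPKM in Ad-MAFG livers and 0.0296 FPKM in Ad-CMV livers, and XLOC_007339 had 0.322 FPKM in Ad-MAFG livers and 0.998 FPKM in Ad-CMV livers.

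Differences were set on the scale log2((Ad-MAFG + 0.1 FPKM)/(Ad-CMV + 0.1 FPKM)), which understates the change of low values. On that scale 154 of the 899 transcripts (17.1%) were at least 2-fold higher in Ad-MAFG livers, and 165 (18.4%) were at least 2-fold lower. Of the 12865 rows with an Ensembl gene, 4.77% were at least 2-fold higher and 5.18% were at least 2-fold lower, but the members were selected on these values, and nothing is read from the gap. Among the 463 transcripts that reached 1 FPKM in both groups, 47 were at least 2-fold higher and 32 were at least 2-fold lower in Ad-MAFG livers, a total of 17.1%. Among annotated rows held to the same minimum, 204 of 10702 were at least 2-fold higher and 362 were at least 2-fold lower, a total of 5.29%. The median log2 ratio was -0.18 over the 899 transcripts and -0.05 over the annotated rows.

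**Figure D1:**
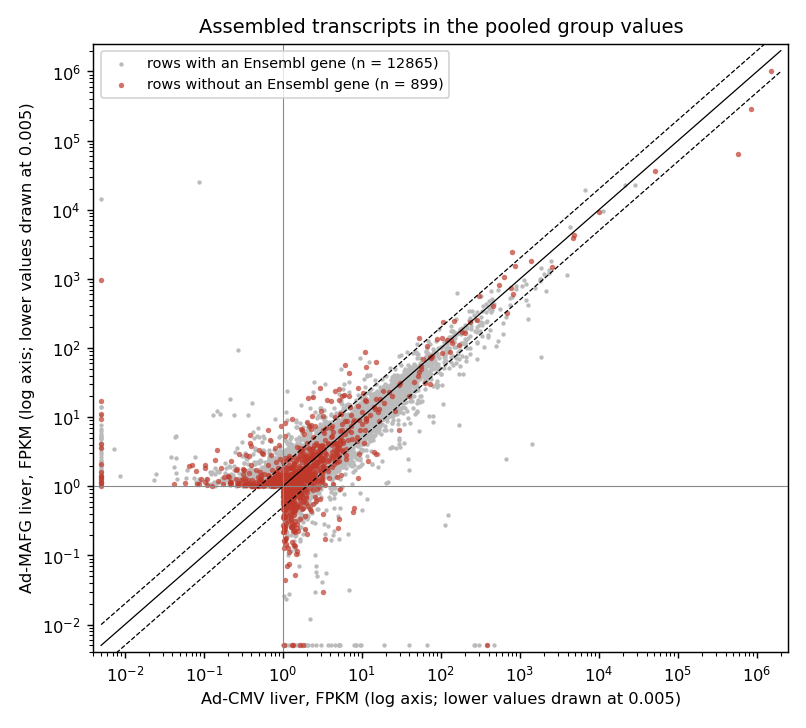
Each point is 1 assembled transcript, with its FPKM in Ad-MAFG livers on the vertical axis and in Ad-CMV livers on the horizontal axis, both on log scales. The solid line marks equal values, dashed lines mark a 2-fold difference, and thin lines mark 1 FPKM. Of the 899 transcripts without an Ensembl gene, 154 lie at or above the upper dashed line and 165 at or below the lower one, on the scale with 0.1 FPKM added, and most sit near the minimum.

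Among annotated rows, those of lincRNA genes (long intergenic noncoding RNAs) were past 2-fold more often than those of protein-coding genes. Of 231 rows for lincRNA genes, 6.93% were at least 2-fold higher and 11.3% at least 2-fold lower in Ad-MAFG livers, and of 11167 protein-coding rows 4.50% were higher and 4.59% lower. In the class of 1 to 2 FPKM, 75 of 519 members were at least 2-fold higher and 111 at least 2-fold lower, against 272 and 196 of 4993 annotated rows. In the class of 5 to 20 FPKM, 30 of 99 members were at least 2-fold higher and 14 at least 2-fold lower, against 123 and 166 of 2477 annotated rows. The members at these higher levels thus stood more often above than below the 2-fold limits, and the annotated rows more often below.

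The loci without an Ensembl gene were short. Their median length was 1288 bases, against 39893 bases for annotated rows, and they ranged from 35 to 606183 bases. Coordinates are those of a locus as the assembler reported it. For 751 transcripts no other row had the same coordinates, and 148 shared them with another row, 67 of these with an annotated one, so that their exact place inside the locus is not known. The longest coordinates, a stretch of 606183 bases across the complement factor H genes (chr1:139577582-140183764), belonged to 3 of the named transcripts, XLOC_001601, XLOC_001602 and XLOC_001607, whose log2 ratios were -1.09, -0.61 and 0.58.

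Counts past 2-fold differed by length, and they include members whose direction the selection fixed. Below 500 bases, 87 of 299 transcripts were at least 2-fold higher in Ad-MAFG livers and 50 were at least 2-fold lower, and 178 of the 299 had a log2 ratio above 0. From 500 to 2000 bases the counts were 20 higher and 34 lower of 209, from 2000 to 10000 bases 34 higher and 53 lower of 237, and above 10000 bases 13 higher and 28 lower of 154. Annotated rows below 500 bases, 88 in all, had 14 at least 2-fold higher and 12 at least 2-fold lower. Among members that reached 1 FPKM in both groups, 35 below 500 bases were at least 2-fold higher and 12 at least 2-fold lower. Longer loci held to that minimum had 12 higher and 20 lower. Of 112 members below 500 bases in the class of 1 to 2 FPKM, 32 were at least 2-fold higher and 34 at least 2-fold lower. The short members also had higher levels, with a median of 3.41 FPKM in the higher group, and FPKM divides by length, so that few fragments give a large value on a short locus. The part of length and fragment number in these ratios was not tested.

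**Figure D2:**
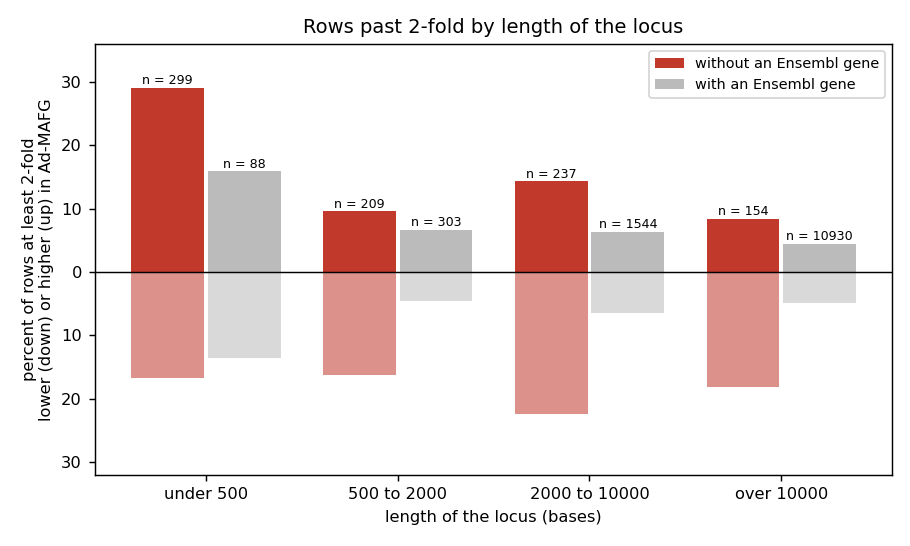
Bars give the percent of rows at least 2-fold higher (upward) and at least 2-fold lower (downward, lighter) in Ad-MAFG livers, by length of the locus in bases, for transcripts without an Ensembl gene (red) and rows with one (grey). Below 500 bases 29.1% of the transcripts without a gene were higher and 16.7% lower, and in each longer class more of them were lower than higher. These shares include transcripts whose direction the selection fixed.

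The highest FPKM values of the whole table belonged to loci shorter than a single read. XLOC_009710, 46 bases on chromosome 11 (chr11:6459002-6459047), had 1009660 FPKM in Ad-MAFG livers and 1482920 FPKM in Ad-CMV livers. XLOC_048232, 40 bases on chromosome 6 (chr6:72197840-72197879), had 290958 FPKM in Ad-MAFG livers and 829713 FPKM in Ad-CMV livers. XLOC_054237, 35 bases on chromosome 7 (chr7:145103542-145103576), had 63574 FPKM in Ad-MAFG livers and 571647 FPKM in Ad-CMV livers. Together these 3 rows made up 81.8% of the summed FPKM of the table in Ad-MAFG livers and 90.5% in Ad-CMV livers, so the column sums are set by 3 loci. In all, 8 members were shorter than the 76-base reads. Of the 36 members that reached 100 FPKM, 32 were shorter than 200 bases.

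The next most abundant members differed less between the groups. XLOC_034049 (57 bases, chromosome 2) had 35880 FPKM in Ad-MAFG livers and 51526 FPKM in Ad-CMV livers. In Ad-MAFG and Ad-CMV livers, XLOC_047109 (66 bases, chromosome 5) had 9384 and 9996 FPKM, XLOC_062154 (89 bases, chromosome 9) had 4315 and 4898 FPKM, and XLOC_035002 (577 bases, chromosome 3) had 3866 and 4754 FPKM. XLOC_064106 (82 bases, X chromosome) had 1496 FPKM in Ad-MAFG livers and 2534 FPKM in Ad-CMV livers. The last 2 of the 10 most abundant were higher in Ad-MAFG livers. XLOC_065928 (75 bases, X chromosome) had 2414 FPKM in Ad-MAFG livers and 796 FPKM in Ad-CMV livers, and XLOC_067589 (77 bases, Y chromosome) had 1792 FPKM in Ad-MAFG livers and 1389 FPKM in Ad-CMV livers.

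Transcripts listed at 0 in 1 of the groups made up most of the extremes. In Ad-CMV livers 14 members were listed at 0, and in Ad-MAFG livers 6 were. The 10 members with the highest log2 ratio were all listed at 0 in Ad-CMV livers, led by XLOC_024524 (74 bases, within an intron of AC161261.1 on chromosome 17) at 977 FPKM in Ad-MAFG livers. XLOC_063106 (143 bases, near Gtf2a2) had 17.1 FPKM, XLOC_014588 (153 bases, near 2610307P16Rik) had 11.3 FPKM and XLOC_022170 (179 bases, in an intron of Atp13a3) had 9.36 FPKM in Ad-MAFG livers. The other 6 lay between 1.39 and 4.16 FPKM in Ad-MAFG livers. Of these, XLOC_029564 lay 6516 bases from Cyp2c54, a drug- and fatty acid-metabolizing cytochrome P450. No fold is given for these rows, since a row listed at 0 can be a failed estimate.

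At the low end, XLOC_066210 (95 bases, X chromosome) was listed at 0 in Ad-MAFG livers and stood at 382 FPKM in Ad-CMV livers. XLOC_001869, XLOC_044312 (828 bases upstream of Mn1), XLOC_061828 (near Paqr9) and XLOC_029569 were also listed at 0 in Ad-MAFG livers, against 1.31 to 1.80 FPKM in Ad-CMV livers. The remaining 5 of the 10 lowest were above 0 in both groups, among them XLOC_027650 and XLOC_027651 of a run on chromosome 18 described further on. XLOC_022133, a locus of 6540 bases over an exon of Gm31583 on chromosome 16, had 0.487 FPKM in Ad-MAFG livers and 7.997 FPKM in Ad-CMV livers, a log2 ratio of -3.79. XLOC_057288, near the Obox4 pseudogenes on chromosome 7, had 0.0296 FPKM in Ad-MAFG livers and 3.26 FPKM in Ad-CMV livers. Its nearest annotated row, Obox4-ps2, was listed at 0 in Ad-MAFG livers and at 5.19 FPKM in Ad-CMV livers. XLOC_042565, which ended 75 bases upstream of Pink1, had 0.175 FPKM in Ad-MAFG livers and 3.37 FPKM in Ad-CMV livers. The nearest annotated row of at least 1 FPKM, Ddost, lay 75 bases away and was higher in Ad-MAFG livers, at 15.03 FPKM against 8.975 FPKM in Ad-CMV livers.

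Position was read against GENCODE M21, a later catalogue than the Ensembl release 90 gene set used for the assembly, for the 750 members on a chromosome that had coordinates of their own. Of these, 254 (33.9%) lay more than 5 kb from any gene and 278 (37.1%) lay within 5 kb of one. A further 133 overlapped an exon, 115 of them on the opposite assembled strand, 49 lay within an intron, and 36 lay over a tRNA gene. RefSeq named a gene at 156 of the 532 loci outside GENCODE genes, and 376 lay outside both catalogues. Of 54 members over an exon of a lincRNA gene, 38 had a log2 ratio below 0, 13 were at least 2-fold lower and 4 at least 2-fold higher in Ad-MAFG livers. Over all 899 members, 504 were below 0, 18.4% were at least 2-fold lower and 17.1% at least 2-fold higher. How many of the 54 reached 1 FPKM in both groups was not counted, so no direction is read from them as a set.

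Position was then set beside direction. Beyond 5 kb of any gene, 75 of 254 members were at least 2-fold higher in Ad-MAFG livers and 41 at least 2-fold lower, with a median log2 ratio of 0.10. Within 5 kb of a gene, 37 of 278 were at least 2-fold higher and 57 at least 2-fold lower, with a median of -0.28. Below 500 bases the counts were 39 higher and 17 lower of 111 beyond 5 kb, and 27 higher and 27 lower of 101 within 5 kb. Among members that reached 1 FPKM in both groups, 24 of 140 were higher and 13 lower beyond 5 kb, against 9 higher and 7 lower of 114 within 5 kb. Their medians were -0.10 beyond 5 kb and -0.05 within 5 kb, so the gap between the medians of all members was not seen once the selection no longer fixed a direction. From 500 to 2000 bases the medians over all members were also close, -0.39 beyond 5 kb and -0.43 within 5 kb.

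Of 157 members within 5 kb upstream of a gene, on either assembled strand, 107 had a log2 ratio below 0, 34 were at least 2-fold lower in Ad-MAFG livers and 18 at least 2-fold higher. Of 121 downstream transcripts, 65 were below 0, 23 at least 2-fold lower and 19 at least 2-fold higher. Among those that reached 1 FPKM in both groups, 32 upstream members were above 0 and 30 below, with 7 at least 2-fold higher and 3 at least 2-fold lower, and 22 downstream members were above 0 and 30 below. The upstream excess below 0 thus lay among members whose direction the selection fixed, as it did for the next 3, which passed only through Ad-CMV. XLOC_013039, upstream of Id2 (an inhibitor of bHLH factors), had 0.0746 FPKM in Ad-MAFG livers and 1.18 FPKM in Ad-CMV livers, while Id2 itself had 32.4 FPKM in Ad-MAFG livers and 29.7 FPKM in Ad-CMV livers. XLOC_058448, upstream of Gpt2 (a mitochondrial alanine aminotransferase), had 0.457 FPKM in Ad-MAFG livers and 1.43 FPKM in Ad-CMV livers, against 14.7 and 15.2 FPKM for Gpt2 in Ad-MAFG and Ad-CMV livers. XLOC_051036, 112 bases upstream of the lymphotoxin beta receptor gene Ltbr, had 0.697 FPKM in Ad-MAFG livers and 1.60 FPKM in Ad-CMV livers, against 22.0 and 21.3 FPKM for Ltbr in Ad-MAFG and Ad-CMV livers. Over 80 upstream pairs with a gene of at least 1 FPKM, the member lay below its gene on the log2 ratio scale in 49 and above it in 31, and the rank correlation of both ratios was 0.27. Of these, 32 pairs had a member of at least 1 FPKM in both groups, with 19 below and 13 above their gene. Over 65 downstream pairs the correlation was 0.66. These correlations are across loci of the same libraries and carry no p-value.

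One short member lay wholly inside a promoter window and its sequence is shown because its value differed strongly between the groups. XLOC_012164, 128 bases assembled on the plus strand, 89 bases upstream of Sos2 (a guanine nucleotide exchange factor for RAS), had 6.46 FPKM in Ad-MAFG livers and 29.9 FPKM in Ad-CMV livers, a log2 ratio of -2.19. It is rich in G and C, and held no match to the motifs above.
XLOC_012164, chr12:69681941-69682068, plus strand: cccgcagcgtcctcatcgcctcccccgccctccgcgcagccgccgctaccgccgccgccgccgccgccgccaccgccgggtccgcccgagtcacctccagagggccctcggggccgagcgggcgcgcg

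Transfer RNA genes named by RefSeq lay under 36 members. RNA polymerase III transcribes tRNA genes from promoters inside the gene, and most mouse tRNA genes lie in clusters, the largest of them beside the histone genes of chromosome 13. In RefSeq symbols such as n-TLtaa2 the capital letter after T gives the amino acid and the lower case letters the anticodon. The loci were 119 to 553 bases long, longer than a tRNA, and 19 of the 36 lay on chromosome 13. In Ad-MAFG livers 26 of the 36 were above Ad-CMV livers, 12 at least 2-fold higher and 3 at least 2-fold lower, with a median log2 ratio of 0.60. Other members below 500 bases had 75 at least 2-fold higher and 47 at least 2-fold lower of 264, with a median of 0.19.

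Among tRNA loci that reached 1 FPKM in both groups, 6 of 28 were at least 2-fold higher in Ad-MAFG livers (21.4%) and 2 at least 2-fold lower (7.14%). Other members below 500 bases held to the same minimum had close shares, 29 of 163 higher (17.8%) and 10 lower (6.13%). XLOC_014424 over n-TLtaa2, a leucine tRNA gene, had 25.8 FPKM in Ad-MAFG livers and 5.18 FPKM in Ad-CMV livers. XLOC_036088 over n-TQctg4, a glutamine tRNA gene on chromosome 3, had 24.0 FPKM in Ad-MAFG livers and 4.60 FPKM in Ad-CMV livers. XLOC_014489 over n-TAagc7, an alanine tRNA gene, had 8.37 FPKM in Ad-MAFG livers and 1.06 FPKM in Ad-CMV livers. The most abundant locus lay the other way. XLOC_014436 over n-TScga1, a serine tRNA gene, had 109.5 FPKM in Ad-MAFG livers and 167.1 FPKM in Ad-CMV livers, and XLOC_014495 over n-TLcag10, a leucine tRNA gene, had 31.6 FPKM in Ad-MAFG livers and 62.1 FPKM in Ad-CMV livers. The lowest log2 ratio, -1.46, belonged to XLOC_001950 over n-TNgtt6, an asparagine tRNA gene, at 1.31 FPKM in Ad-MAFG livers and 3.78 FPKM in Ad-CMV livers.

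By amino acid, 7 of 8 serine tRNA loci had a log2 ratio above 0, with a median of 0.68. Of 4 leucine loci 2 were above 0, and both glutamine loci were at least 2-fold higher in Ad-MAFG livers. XLOC_036084 over n-TQctg5, the other glutamine locus, had 2.05 FPKM in Ad-MAFG livers and 0.103 FPKM in Ad-CMV livers. On chromosome 13, 9 of 19 loci were at least 2-fold higher and 1 at least 2-fold lower, and on the other chromosomes 3 of 17 were higher and 2 lower. Both splits include loci whose direction the selection fixed. XLOC_036084 passed only through Ad-MAFG. The 1 lower locus on chromosome 13, XLOC_014426, passed only through Ad-CMV. Loci that reached 1 FPKM in both groups were not counted by amino acid or chromosome, so no direction is read from these splits. Mouse tRNA genes have near-identical copies, so reads can be split between loci, and the value of any single one is uncertain.

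**Figure D3:**
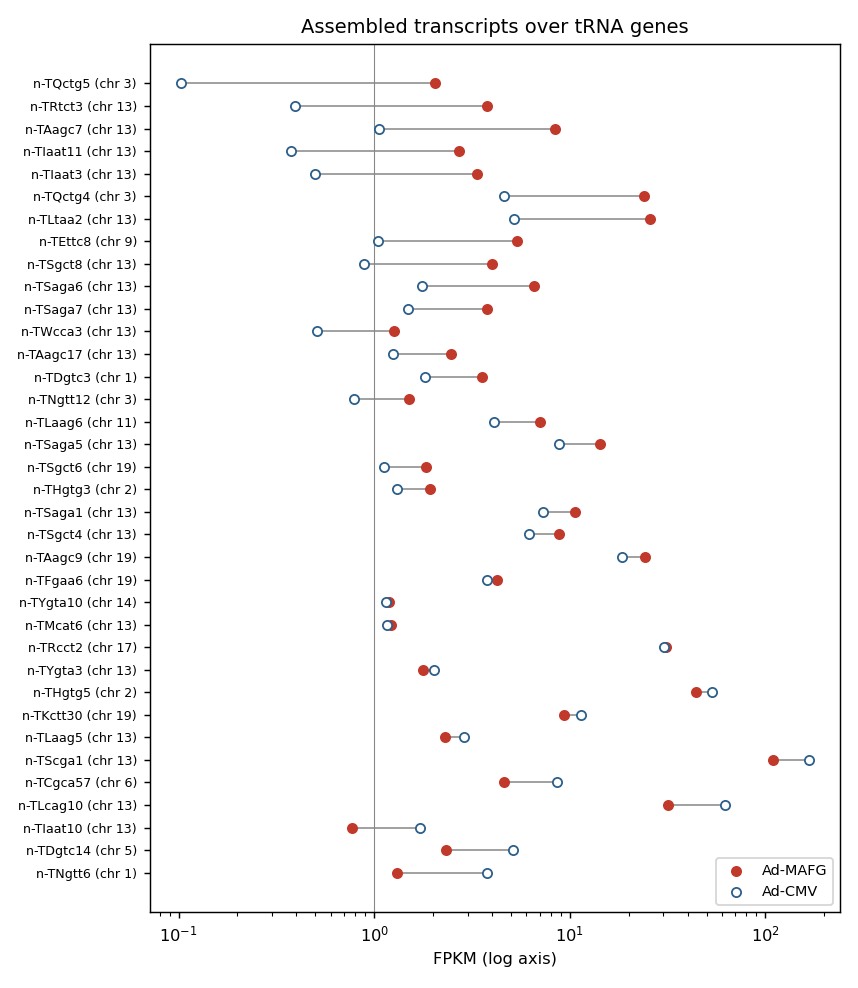
Each line is 1 assembled transcript over a tRNA gene, named by its RefSeq symbol and chromosome, with FPKM in Ad-MAFG livers (filled red) and Ad-CMV livers (open blue) on a log axis, ordered by log2 ratio. The upper 26 lines have the Ad-MAFG value to the right, and n-TScga1, at 109.5 and 167.1 FPKM in Ad-MAFG and Ad-CMV livers, is among the lower 10.

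A further small polymerase III gene lay under XLOC_057279 (chr7:144914477-144914641), which covered most of Bc1, the rodent brain cytoplasmic RNA, which is best known from neurons and arose from a tRNA gene. The member had 238.4 FPKM in Ad-MAFG livers and 107.3 FPKM in Ad-CMV livers, a log2 ratio of 1.15. It was assembled on the minus strand while Bc1 is annotated on the plus strand, and Bc1 RNA and an RNA of the other strand cannot be told apart here. The Bc1 RNA is shown, as GENCODE M21 (GRCm38) gives it, because it fills nearly the same bases.
Bc1, chr7:144914470-144914637, plus strand: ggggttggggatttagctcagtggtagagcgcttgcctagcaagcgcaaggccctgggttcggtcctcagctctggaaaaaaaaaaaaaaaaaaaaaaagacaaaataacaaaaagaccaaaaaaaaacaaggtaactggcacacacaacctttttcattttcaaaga

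By chromosome, members made up 6.53% of all rows that reached 1 FPKM. Chromosome 13 had 92 members, 14.2% of its rows, of which 19 were tRNA loci and 26 lay in runs. Chromosomes 19, 12 and 18 followed with 9.57%, 9.54% and 9.30%, and chromosome 7 had the lowest share among the numbered chromosomes, 3.26%. Median log2 ratios ran from -0.55 on chromosome 15 (38 members) and -0.54 on chromosome 12 (56 members) to 0.36 on chromosome 8 (23 members) and 0.56 on chromosome 9 (45 members). Annotated rows had medians between -0.13 and 0.04 on the numbered chromosomes and X. The member medians include members whose direction the selection fixed, so nothing is read from the gap. Without runs and tRNA loci the medians were -0.40 on chromosome 15 (29 members), -0.38 on chromosome 12 (48 members) and 0.52 on chromosome 9 (44 members). On chromosome 9, 7 members lay along Maml2, a co-activator of Notch signalling, 5 of them in introns, and all 7 assembled on the same strand as the Maml2 row, opposite to the annotated strand. This set was picked out after its values were seen. The 7 had 1.02 to 3.57 FPKM in Ad-MAFG livers and 0.562 to 2.38 FPKM in Ad-CMV livers, with log2 ratios of 0.48 to 0.76. Those below 1 FPKM in Ad-CMV livers passed only through Ad-MAFG, so the selection fixed their direction. Maml2 itself had 1.89 FPKM in Ad-MAFG livers and 1.32 FPKM in Ad-CMV livers.

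Members often came in runs. Where a gap of at most 50 kb joined neighbours, 23 runs held at least 4 members each and 132 members in all. In 14 runs every member had a log2 ratio below 0, and in 1 run every member had one above 0. Of the 72 members in those 14 runs, 40 passed only through Ad-CMV and had their direction fixed by the selection, and 32 reached 1 FPKM in both groups. Consecutive members of a run can be pieces of a single RNA, so a run is counted here as 1 region and its members are not independent.

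The single run with every member higher lay on chromosome 1 (chr1:70893215-70936413), more than 5 kb from any GENCODE gene, with 4 of its 5 members over the RefSeq gene Gm29906. Its 5 members had 1.67 to 3.33 FPKM in Ad-MAFG livers and 0.0642 to 0.146 FPKM in Ad-CMV livers, with log2 ratios of 3.30 to 3.80. All 5 passed the minimum only through Ad-MAFG. The nearest annotated row of at least 1 FPKM, Bard1, the partner of BRCA1, lay 91064 to 125808 bases away with a log2 ratio of 1.01.

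The lowest run lay on chromosome 18 (chr18:46628674-46646343), with 3 of its 4 members at the RefSeq gene Gm3734. Its 4 members had 0.223 to 0.424 FPKM in Ad-MAFG livers and 1.56 to 7.77 FPKM in Ad-CMV livers, with log2 ratios of -3.91 to -2.36 on both strands. The 3 at Gm3734 shared 1 set of coordinates. The nearest annotated row, Eif1a, had a log2 ratio of -0.18. On chromosome 17 (chr17:81307482-81347446), where 1 of 4 members lay at Gm33944, the 4 members had 0.128 to 0.279 FPKM in Ad-MAFG livers and 1.03 to 1.36 FPKM in Ad-CMV livers, and their nearest annotated row, Slc8a1, a sodium-calcium exchanger, had a log2 ratio of 0.54. All members of both runs passed the minimum only through Ad-CMV, so their direction was fixed by the selection.

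Several runs lay beside annotated rows that were lower in Ad-MAFG livers. On chromosome 4 (chr4:62091268-62102143), next to Gm12909, 4 members had 1.08 to 3.13 FPKM in Ad-MAFG livers and 4.28 to 14.2 FPKM in Ad-CMV livers. Their log2 ratios of -2.30 to -1.84 bracketed the -2.18 of Gm12909, which had 1.90 FPKM in Ad-MAFG livers and 8.93 FPKM in Ad-CMV livers. At the Cyp2d genes of chromosome 15, which encode drug-metabolizing cytochromes P450, 5 members ran from -2.40 to -0.76. Of the 5, 3 passed only through Ad-CMV. The lowest of the 5, XLOC_020304 in an intron of Cyp2d36-ps, had 0.905 FPKM in Ad-MAFG livers and 5.20 FPKM in Ad-CMV livers. It lay beside Cyp2d37-ps at 5.08 and 29.6 FPKM in Ad-MAFG and Ad-CMV livers. Near Gm10319, 5 members ran from -1.25 to -0.22, and Gm10319 had 4.09 FPKM in Ad-MAFG livers and 8.80 FPKM in Ad-CMV livers. Of these 5 members, 4 passed only through Ad-CMV. Members that passed only through Ad-CMV had their direction fixed by the selection.

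Within Klf12, a Kruppel-like transcription factor gene on chromosome 14, 8 members ran from -1.31 to -0.51. All 8 were assembled on the same strand as the Klf12 row, opposite to the annotated strand, and 7 passed only through Ad-CMV. The highest, XLOC_018172, had 1.27 FPKM in Ad-MAFG livers and 3.17 FPKM in Ad-CMV livers, and Klf12 had 4.02 FPKM in Ad-MAFG livers and 6.35 FPKM in Ad-CMV livers. On chromosome 16, at Gm32461 and Gm32624, 6 members had log2 ratios of -1.60 to -0.97, while their nearest annotated row, Ltn1, more than 490 kb away, had -0.19. Of these 6 members, 4 passed only through Ad-CMV. On chromosome 10, 6 members along Gm46225 near Cep85l ran from -1.13 to -0.35, and Cep85l had a log2 ratio of -0.50. The largest run, 16 members around the complement factor H genes of chromosome 1, had 8 members above 0 and 8 below, from -1.09 to 0.66, and only 4 sets of coordinates between them.

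**Figure D4:**
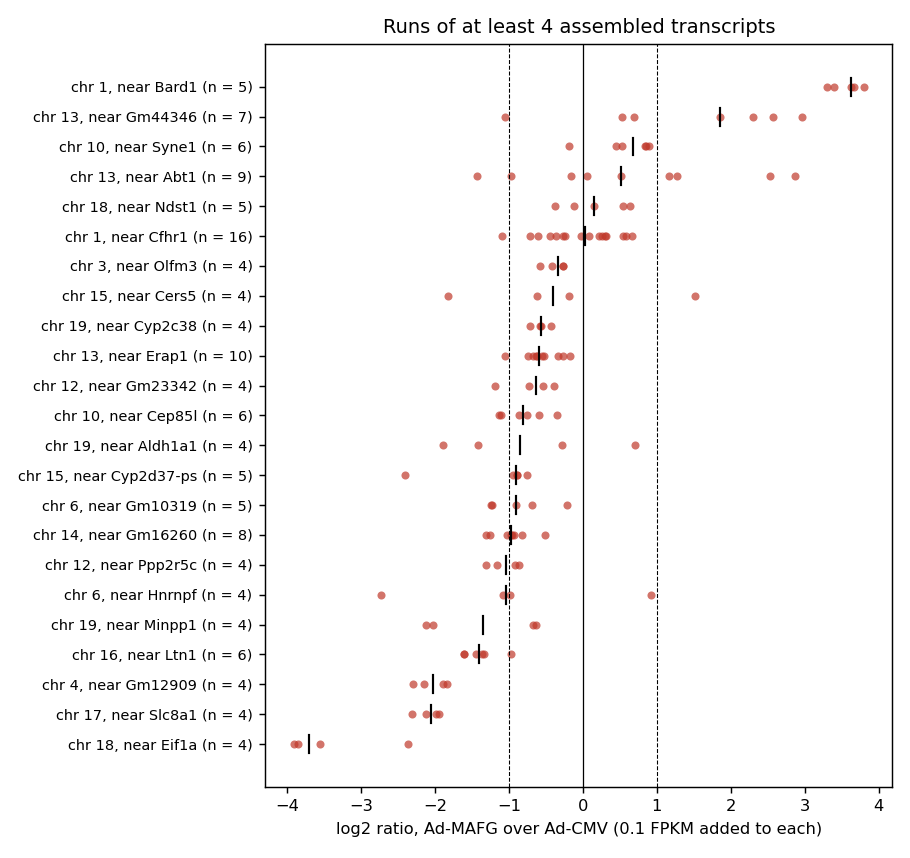
Points are the log2 ratios (Ad-MAFG over Ad-CMV, 0.1 FPKM added to each) of the members of the 23 runs of at least 4 assembled transcripts, labelled by chromosome and by 1 nearby annotated row, with black ticks at the medians and dashed lines at 2-fold. The run near Bard1 lies above 3.30 throughout, and 14 runs lie wholly below 0.

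Set beside their nearest annotated row of at least 1 FPKM, 546 of 898 members (60.8%) had the same direction, with a rank correlation of 0.26 across loci. Annotated rows shared the direction of their own nearest annotated row in 68.4% of cases, but most of those overlap. At gaps of 1 base to 10 kb the share was 62.1% over 356 members, against 56.5% over 1775 annotated rows, and beyond 10 kb it was 60.2% over 485 members, against 51.2% over 2635 annotated rows. Where the neighbour within 10 kb was itself at least 2-fold apart between the groups, 48 of 57 members (84.2%) had its direction, 23 of 25 of those assembled on its strand and 22 of 29 of those assembled on the other. Beyond 10 kb 38 of 52 members had it, and of annotated rows within 10 kb of such a neighbour 86 of 145 (59.3%) had.

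**Figure D5:**
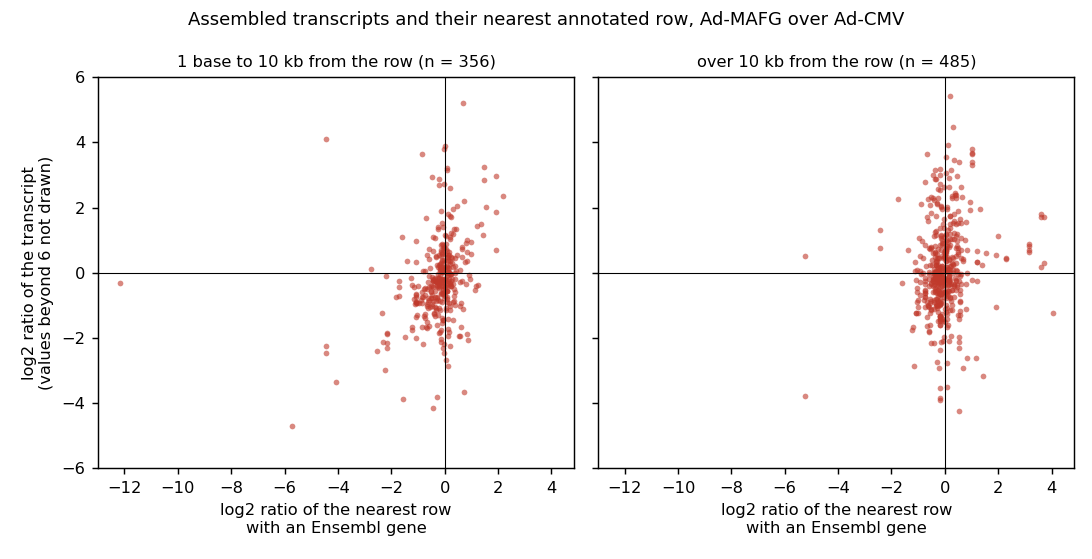
Log2 ratios (Ad-MAFG over Ad-CMV) of members on the vertical axis against those of their nearest annotated row on the horizontal axis, for gaps of up to 10 kb (left, n = 356) and beyond 10 kb (right, n = 485), with 5 members beyond 6 on the vertical axis not drawn. The rank correlation across loci is 0.36 on the left and 0.19 on the right.

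Members near genes of liver metabolism included pairs in which both were lower in Ad-MAFG livers. XLOC_051721, 105 bases from the sulfotransferase gene Sult2a8, had 0.0520 FPKM in Ad-MAFG livers and 1.44 FPKM in Ad-CMV livers, and Sult2a8 had 1.11 FPKM in Ad-MAFG livers and 20.3 FPKM in Ad-CMV livers. XLOC_054107, upstream of Cyp2e1, an ethanol-oxidizing cytochrome P450, had 0.0443 FPKM in Ad-MAFG livers and 1.05 FPKM in Ad-CMV livers, and Cyp2e1 had 266 FPKM in Ad-MAFG livers and 1263 FPKM in Ad-CMV livers. XLOC_012537, 827 bases from Serpina1a, which encodes an alpha-1 antitrypsin, had 1.33 FPKM in Ad-MAFG livers and 2.68 FPKM in Ad-CMV livers. Of these 3 members only XLOC_012537 reached 1 FPKM in both groups. XLOC_051721 and XLOC_054107 passed only through Ad-CMV, so their direction was fixed by the selection.

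In total 16 members had a Cyp2 or Cyp3 gene as nearest annotated row, 4 at least 2-fold higher and 4 at least 2-fold lower in Ad-MAFG livers, while 29 of the 52 annotated Cyp2 and Cyp3 rows were at least 2-fold lower and 2 higher. Of the 16, 7 had a log2 ratio above 0 and 9 below. How many of the 16 reached 1 FPKM in both groups was not counted, so no direction is read from them as a set. The 4 beside Cyp2c38 formed 1 run, reached 1 FPKM in both groups and had log2 ratios of -0.72 to -0.43. XLOC_028657, 2037 bases from the bile acid-modifying Cyp2c70, had 1.27 FPKM in Ad-MAFG livers and 0.311 FPKM in Ad-CMV livers, and XLOC_054974, 64 bases from Cyp2a12, had 1.09 FPKM in Ad-MAFG livers and 0.347 FPKM in Ad-CMV livers. Both passed only through Ad-MAFG, so their direction was fixed by the selection. All 6 members nearest to an apolipoprotein or apolipoprotein L gene had log2 ratios below 0, as did 504 of the 899, and 2 of them were at least 2-fold lower. Of the 6, only XLOC_011765 and XLOC_011767 reached 1 FPKM in both groups. The 3 nearest to Apob lay 27003 to 85644 bases from it and next to each other, so they are not independent, and the member nearest to Apol9b lay 129871 bases away. None lay nearest to a major urinary protein, a serum amyloid, a listed collagen, a listed plasma protein or a listed imprinted gene, and 3 lay nearest to a Ugt or Sult gene.

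In 19 cases a pair of members, 1 assembled on each strand, had the same coordinates. In 16 of these pairs both members had the same direction, with a median difference of 0.43 between the log2 ratios. XLOC_012586 and XLOC_013803 (chr12:106479258-106492148, at Gm32876) had 0.527 and 0.912 FPKM in Ad-MAFG livers and 1.57 and 2.70 FPKM in Ad-CMV livers, for the plus and the minus strand. Both passed only through Ad-CMV, so their agreement was fixed by the selection, as it was in others of the 16 pairs. Agreement apart from the selection was not counted. Levels on both strands ranged from nearly equal to far apart, as at chr3:62159047-62159366, where XLOC_035567 on the plus strand had 406 FPKM in Ad-MAFG livers and 462 FPKM in Ad-CMV livers, and XLOC_037426 on the minus strand had 1.74 FPKM in Ad-MAFG livers and 1.80 FPKM in Ad-CMV livers.

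Markers of liver cell types were checked in the same table, since in bulk tissue fewer cells of a type and less RNA per cell cannot be told apart. All 25 listed markers had a row and none was at 0 in either group, though Ttr, a marker of hepatocytes, was listed at 0.230 FPKM in Ad-MAFG livers and 3.07e-04 FPKM in Ad-CMV livers. The summed level of 6 hepatocyte markers was 6492 FPKM in Ad-MAFG livers and 6007 FPKM in Ad-CMV livers. Albumin (Alb) carried that sum, at 5603 FPKM in Ad-MAFG livers and 4310 FPKM in Ad-CMV livers, while Apoa1, Apob, Serpina1a and Cps1 were lower in Ad-MAFG livers, with log2 ratios of -1.27, -0.32, -1.10 and -0.59. The 4 stellate cell and matrix markers summed to 146.4 FPKM in Ad-MAFG livers and 77.64 FPKM in Ad-CMV livers, with log2 ratios of 2.56 for Col1a1, 2.35 for Col3a1, 0.77 for Lrat and 0.01 for Dcn. In Ad-MAFG and Ad-CMV livers, the 4 macrophage markers summed to 21.66 and 29.58 FPKM, the 3 endothelial markers to 20.04 and 24.84 FPKM, and the 3 cholangiocyte markers to 7.48 and 4.65 FPKM. Among the macrophage markers Marco was lower in Ad-MAFG livers, at 2.10 FPKM against 13.6 FPKM in Ad-CMV livers, Clec4f had a log2 ratio of -0.18, and Cd68 (0.47) and Adgre1 (0.29) had ratios above 0. The 3 T, NK and B cell markers summed to 2.603 and 2.388 FPKM, and the 2 erythroid markers to 403.8 and 336.1 FPKM, in Ad-MAFG and Ad-CMV livers. The part of these shifts in the values of the members was not tested.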

How the data were processed

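Per the labels and the study's methods, total liver RNA from 6 mice was sequenced, adapters were trimmed, rRNA reads were removed with Bowtie2 2.2.9, reads were aligned to mm10 (GRCm38) with STAR 2.6.0c, and transcripts were assembled, merged with Ensembl release 90 and compared with Cufflinks 2.2.1. The deposited FPKM values are the authors' Cuffdiff estimates, 1 per assembled transcript and group, pooled over 3 mice. Columns of the authors' own comparison (fold change, test statistic, p and q) were not used. Mafg itself was not analysed here.

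Rows without an Ensembl gene and with at least 1 FPKM in the higher group were kept. Log2 ratios used a pseudocount of 0.1 FPKM and a limit of 2-fold. Nearest rows were found by the gap between coordinates. The assembled strand was read from locus numbering, and it was opposite to the Ensembl strand for 67.7% of annotated rows of at least 1 FPKM, so no sense or antisense call was made. Positions came from GENCODE M21 and RefSeq GRCm38.p6, with positions counted from 1. Promoter sequences came from RefSeq and the Bc1 sequence from GENCODE. Scripts ran in Python with pandas and numpy and were tested on simulated data. No test across mice was possible. Members and gene lists were chosen with earlier results of these data known. Named transcripts were the 10 highest by mean FPKM, the 10 highest and 10 lowest by log2 ratio, the 3 longest, those nearest the 1 FPKM minimum, runs of at least 4 within 50 kb, and members beside the gene lists, and others were named after their values were seen. Alternatives changed the fold, pseudocount, FPKM minimum, scaling, status, shared coordinates and choice of neighbour.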

Additional observations from a re-analysis of the deposited data

How the results depend on the processing

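Of 97 recomputed values, 65 stayed within 1.5 times the reported count or 0.1 of the reported log2 median, and 32 did not. Those 32 came from the fold, the pseudocount of 1 FPKM and the FPKM minimum, and the cause was not tested. With a fold of 1.5, 284 members were lower; with a fold of 4, 74 were higher (47 of them below 500 bases) and 48 lower. With a pseudocount of 1 FPKM, 82 were higher (56 below 500 bases) and 49 lower, and the tRNA median was 0.47. With a minimum of 0.5 FPKM there were 3506 members (257 on chromosome 13), 618 higher (191 below 500 bases) and 594 lower, with a median of -0.01. With 2 FPKM there were 380 members (42 on chromosome 13), 79 higher (55 below 500 bases) and 54 lower, with a median of -0.06. With 5 FPKM there were 167 members (17 on chromosome 13), 47 higher (37 below 500 bases) and 21 lower, with a median of 0.01. With 1 FPKM in both groups there were 47 higher (35 below 500 bases) and 32 lower, with a median of -0.07, 49 members on chromosome 13 and a tRNA median of 0.45. Centring, status, counting shared coordinates once, the choice of neighbour and leaving out Y and unplaced loci, and 3 alternatives chosen after seeing the data (without tRNA loci, without loci below 76 bases, without any shared coordinates), kept each value within those limits. No paired analysis was possible because the table holds 1 pooled value per group, and no mouse could be left out for the same reason.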
